A study of Homo sapiens with 12 samples.

Results

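The aminoacyl-tRNA synthetases are the enzymes that load each tRNA with its amino acid. Their genes were taken by symbol: protein-coding synthetases of the standard amino acids with no suffix or suffix 1 or 2, with FARSA, FARSB and EPRS1. TARS3 lies outside these symbols and was listed with the selenocysteine, editing and related enzymes. A mean of at least 20 normalized counts over the 12 libraries was also required. All 37 genes that match the names passed this minimum, among 12939 of 22148 genes that did. Of the 37, 20 encode cytosolic enzymes and 17, which carry the suffix 2 in their symbols, mitochondrial ones. The rule itself uses no difference between groups.

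The RNA came from HepG2, a human liver cancer line, treated with siRNA against CPSF6 (siCPSF6) or a control siRNA (siNC). Its product is the larger component of cleavage factor Im, a complex that helps to choose where a transcript is cut and polyadenylated. The 6 groups were siCPSF6 and siNC cells at 0 h, at 3 h and at 6 h in 5 µg/ml actinomycin D, a blocker of transcription. Every group had been cultured for 48 h after transfection and had 2 biological replicates, all from 1 cell line; whether these were separate cultures was not given, so p-values measure the spread between these libraries. The design asks which mRNA levels differ once CPSF6 is silenced, and how long the mRNAs last when no more is made.

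Cytosolic synthetases charge tRNA for the ribosomes of the cytosol, and 8 of those measured here sit with the scaffold proteins AIMP1, AIMP2 and EEF1E1 in the multisynthetase complex. Mitochondrial synthetases are encoded in the nucleus, imported, and charge the tRNAs of the mitochondrial genome. GARS1 and KARS1 serve both compartments from 1 gene each. Many cytosolic synthetase genes are known targets of ATF4, the transcription factor of the amino acid response, which acts through a C/EBP-ATF response element near the gene start.

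The promoter sequences show how unevenly that element lies among the members. In RefSeq windows of GRCh38.p14, running from 250 bases before the gene start to 50 after it, the letters TGATGNAA were searched on both strands as the only motif. They were found in 8 of the 30 members with a window (26.7%), against 4.46% of 27305 genes and 3.62% of 35116 windows. The 8 were 7 of 16 cytosolic genes and 1 of 14 mitochondrial genes. The 30-base windows below, each read 5′ to 3′ on its gene's strand, are shown because they hold the match, in capitals.
CARS1 (chr11:3057407-3057436, minus strand): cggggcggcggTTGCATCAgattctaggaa
AARS1 (chr16:70289675-70289704, minus strand): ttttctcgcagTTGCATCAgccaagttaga
MARS1 (chr12:57488053-57488082, plus strand): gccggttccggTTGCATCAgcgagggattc
IARS1 (chr9:92293692-92293721, minus strand): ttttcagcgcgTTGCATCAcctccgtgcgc
TARS1 (chr5:33440956-33440985, plus strand): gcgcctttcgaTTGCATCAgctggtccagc
GARS1 (chr7:30594834-30594863, plus strand): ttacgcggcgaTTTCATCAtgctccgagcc
NARS1 (chr18:57621804-57621833, minus strand): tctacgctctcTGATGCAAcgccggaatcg
YARS2 (chr12:32756076-32756105, minus strand): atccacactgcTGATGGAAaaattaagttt
A match is a string of letters and shows no binding. YARS2 was the mitochondrial match, and its letters began at position -197 relative to the gene start.

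A second sequence concerns 2 members that share a promoter region. HARS1 and HARS2, the cytosolic and mitochondrial histidyl-tRNA synthetases, start back to back on opposite strands of chromosome 5 with 84 bases between their RefSeq starts. This stretch (chr5:140691371-140691454, plus strand, GRCh38.p14) has 59.5% G and C and is shown because the 2 genes it separates behaved differently.
HARS1 to HARS2: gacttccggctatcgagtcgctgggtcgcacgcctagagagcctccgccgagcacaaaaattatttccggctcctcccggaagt

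The libraries held 19133288 to 33352246 normalized counts, from an estimated 21800000 to 30300000 reads each. Replicates correlated at 0.991 to 0.993 across genes. CPSF6 itself had 768 and 718 normalized counts in siCPSF6 cells at 0 h, against 2147 and 2082 in siNC cells, a log2 difference of -1.51 ± 0.09 (SE). All 9 hepatocyte markers were measured. Of 9 stromal, endothelial and immune markers, 5 passed the minimum, and CDH5 had 0 to 5 counts. Their summed counts were 13936 to 21215 in siCPSF6 and 28023 to 41651 in siNC libraries at 6 h. Most of it was LYZ (18837 and 11869 in siCPSF6, 39375 and 25847 in siNC). PDGFRB ran the other way, with 763 and 487 counts in siCPSF6 and 267 and 204 in siNC libraries. Of the 5, 1 was called higher and 1 lower in siCPSF6 cells at 6 h, where 55.7% of all genes were called. The part of these markers in the results was not tested. In bulk RNA, fewer cells and less RNA per cell cannot be told apart.

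Per transcript length, cytosolic synthetase mRNAs were the more abundant class. At 0 h the median level over the 20 cytosolic genes was 58.4 TPM (a length-corrected share of all transcripts) in siCPSF6 and 57.5 TPM in siNC cells, and over the 17 mitochondrial genes 23.5 TPM in siCPSF6 and 19.1 TPM in siNC cells. QARS1, the glutaminyl enzyme of the complex, stood first in all 6 groups, with 222 ± 18.0 TPM (SD, n = 2) in siCPSF6 and 235 ± 0.797 TPM in siNC cells at 0 h. The next in siCPSF6 cells were SARS1 at 89.3 ± 0.639 TPM and NARS1 at 84.3 ± 4.63 TPM, a gap within about 1 SD of NARS1. In siNC cells KARS1 at 85.8 ± 1.54 TPM and NARS1 at 81.3 ± 3.54 TPM lay as close. PARS2, the mitochondrial prolyl enzyme, was last in all groups, with 2.17 ± 0.184 TPM in siCPSF6 and 3.42 ± 0.603 TPM in siNC cells at 0 h. FARSB, the beta subunit of the cytosolic phenylalanyl enzyme, was the lowest cytosolic member at 0 h, with 8.06 ± 0.0169 TPM in siCPSF6 and 14.1 ± 0.674 TPM in siNC cells. FARSA, the alpha subunit of the same enzyme, had 63.5 ± 0.465 TPM in siCPSF6 and 78.3 ± 4.51 TPM in siNC cells.

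Before actinomycin D, silencing of CPSF6 was accompanied by changes in both directions. At 0 h 19 of the 37 members passed an adjusted p of 0.05, 9 higher and 10 lower in siCPSF6 cells, where 42.9% of all genes tested passed. Values here and below are differences of mean log2(normalized count + 1) from limma, with the standard error and a p adjusted by Benjamini-Hochberg over all 12939 genes; adding 1 shrinks the differences of low genes. The median over members was -0.03, against 0.00 over all genes. Among cytosolic members 4 were higher and 7 lower (median -0.11), and among mitochondrial members 5 were higher and 3 lower (median 0.15).

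YARS2, the mitochondrial tyrosyl-tRNA synthetase, had 1131 and 1091 normalized counts in siCPSF6 libraries, against 658 and 621 in siNC libraries at 0 h. Both siCPSF6 libraries lay above both siNC libraries, and the log2 difference was 0.80 ± 0.09 (limma adjusted p = 7.5e-06). HARS1 had 1937 and 1984 counts in siCPSF6, against 1228 and 1195 in siNC libraries, a difference of 0.69 ± 0.06 (adjusted p = 1.2e-06). SARS1, which also charges the selenocysteine tRNA with serine, had 2810 and 2682 counts in siCPSF6, against 2022 and 1897 in siNC libraries. GARS1 had 3172 and 2974 counts in siCPSF6, against 2292 and 2164 in siNC libraries. SARS1 rose by 0.49 ± 0.07, GARS1 by 0.46 ± 0.07, and TARS2, the mitochondrial threonyl enzyme, by 0.42 ± 0.11. With spike-in scaling these 3 did not pass (adjusted p = 0.073 for SARS1, 0.096 for GARS1 and 0.21 for TARS2). TARS2 was also not called from TPM (adjusted p = 0.26), without siCPSF6 replicate 1 at 0 h (0.063) or without siNC replicate 2 at 0 h (0.064).

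The lower members at 0 h were led by FARSB, with 1033 and 1002 counts in siCPSF6 libraries, against 1688 and 1740 in siNC libraries. Its difference was -0.75 ± 0.10 (limma adjusted p = 2.9e-05), while FARSA differed by -0.26 ± 0.09 (adjusted p = 0.025). SARS2, the mitochondrial seryl enzyme, had 589 and 566 counts in siCPSF6, against 825 and 903 in siNC libraries, a difference of -0.58 ± 0.09. It is uncertain, as 71.9% of its 50-base stretches also occur in AC011455.2, an overlapping protein-coding gene on its strand. WARS1, the tryptophanyl enzyme known to be induced by interferon, had 1330 and 1299 counts in siCPSF6, against 1864 and 1963 in siNC libraries. Its difference was -0.54 ± 0.07 and that of RARS2, the mitochondrial arginyl enzyme, -0.48 ± 0.10. With spike-in scaling 10 members were called, 2 higher (YARS2 and HARS1) and 8 lower, where 28.6% of all genes passed and their median lay at -0.13. Without the 6 h libraries in the fit, an alternative chosen after seeing the data, 21 members passed, 10 higher and 11 lower.

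**Figure D1:**
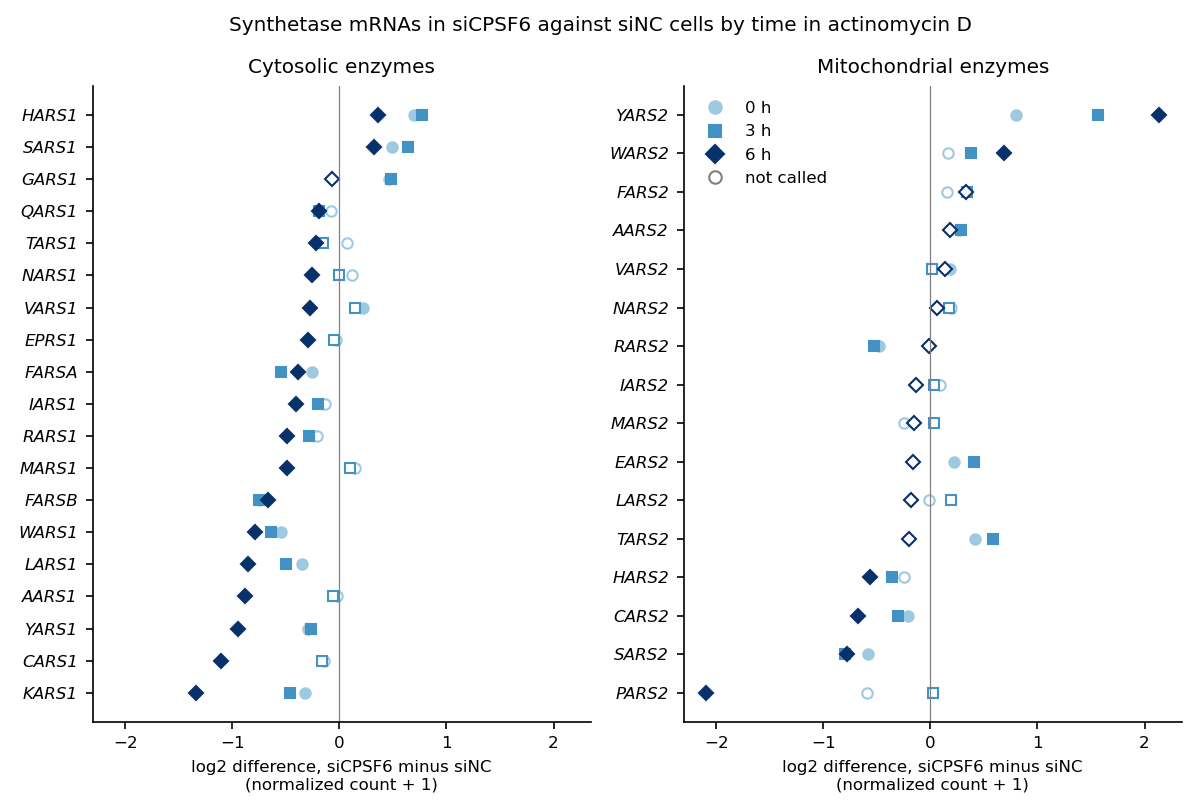
Log2 difference of siCPSF6 minus siNC cells (horizontal axis, on normalized counts + 1) for 19 cytosolic and 16 mitochondrial synthetases at 0, 3 and 6 h in actinomycin D; filled symbols passed an adjusted p of 0.05. At 6 h 16 of the cytosolic members plotted lie left of 0 and are filled, and YARS2 lies farthest right at 2.14.

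After 3 h in the drug the differences again ran in both directions. Of 37 members 23 passed, 9 higher and 14 lower in siCPSF6 cells, where 55.3% of all genes passed. The median was 0.00 over members and -0.03 over all genes. Cytosolic members were higher in 3 and lower in 10 cases, and mitochondrial members higher in 6 and lower in 4. YARS2 had 978 and 1002 counts in siCPSF6, against 320 and 350 in siNC libraries, a difference of 1.56 ± 0.09 (limma adjusted p = 5.3e-09). HARS1 differed by 0.77 ± 0.06, SARS1 by 0.64 ± 0.07, TARS2 by 0.58 ± 0.11 and GARS1 by 0.48 ± 0.07. TARS2 missed the threshold from TPM (adjusted p = 0.056). Among the lowest were SARS2 at -0.79 ± 0.09, FARSB at -0.75 ± 0.10, WARS1 at -0.63 ± 0.07 and FARSA at -0.54 ± 0.09. Without the 6 h libraries 24 members passed, 10 higher and 14 lower. With spike-in scaling 14 passed, 6 higher and 8 lower, where 39% of all genes passed.

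At 6 h nearly all cytosolic synthetases were lower in siCPSF6 cells. Of the 20, 17 were lower, 2 were higher (HARS1 and SARS1) and 1, GARS1, was not called at -0.07 ± 0.07. All 8 enzymes of the multisynthetase complex were lower, with a median of -0.49, and 6 of the 8 were called lower with spike-in scaling. Over all members 25 were called, 4 higher and 21 lower, where 55.7% of all genes were called and 28.6% were called lower. The median was -0.44 over cytosolic members, -0.13 over mitochondrial members and -0.02 over all genes. With spike-in scaling 18 members passed, 2 higher and 16 lower, where 41% of all genes passed. Of the cytosolic members 12 were then lower, and HARS1 and SARS1 were no longer called (adjusted p = 0.077 for HARS1 and 0.11 for SARS1).

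KARS1, the lysyl enzyme of both compartments, showed the largest 6 h difference among cytosolic members. It had 2611 and 2830 counts in siCPSF6, against 6724 and 7010 in siNC libraries, a log2 difference of -1.34 ± 0.07 (limma adjusted p = 2e-09). CARS1, the cysteinyl enzyme, had 659 and 660 counts in siCPSF6, against 1457 and 1379 in siNC libraries, a difference of -1.10 ± 0.08. In both genes the siNC libraries held over double the siCPSF6 counts. YARS1, the cytosolic tyrosyl enzyme, had 2355 and 2368 counts in siCPSF6, against 4526 and 4599 in siNC libraries, a difference of -0.95 ± 0.07. AARS1, the alanyl enzyme, had 5014 and 4849 counts in siCPSF6, against 9447 and 8698 in siNC libraries, a difference of -0.88 ± 0.07. KARS1 overlaps TERF2IP and YARS1 overlaps S100PBP on the opposite strand, and whether reads were counted by strand is not given in the sources used here. Among members lower at 6 h, PARS2 had the largest fitted difference, -2.09 ± 0.44, from 4 and 1 counts in siCPSF6 and 12 and 13 in siNC libraries. From TPM, fitted as log2(TPM + 1), PARS2 differed by -0.18 and was not called (limma adjusted p = 0.31). Its means at 6 h were 0.037 TPM in siCPSF6 and 0.177 TPM in siNC cells, so the added 1 shrinks this difference.

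Among the mitochondrial members 2 were higher, 4 lower and 11 not called at 6 h; the difference between the classes was not tested. YARS2 had 671 and 648 counts in siCPSF6, against 149 and 149 in siNC libraries, a difference of 2.14 ± 0.09 (limma adjusted p = 2e-10). WARS2, the mitochondrial tryptophanyl enzyme, had 593 and 604 counts in siCPSF6, against 373 and 369 in siNC libraries, a difference of 0.69 ± 0.10. YARS2 (chr12:32727490-32755902, minus strand, GENCODE release 29 on GRCh38, 5 exons) overlaps DNM1L on the opposite strand. It also overlaps AC084824.3 and AC084824.4 on its own strand, and 0.145% of its 50-base stretches occur in other genes.

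Where 1 amino acid has a cytosolic and a mitochondrial enzyme with matching symbols, the mRNAs of some pairs were called in opposite directions. Of 13 such pairs compared 2 had both members called in opposite directions at 0 h, 4 at 3 h and 4 at 6 h, and 1 pair at each time had both called the same way. Calls were common in both directions over all 12939 genes. There 2825 were higher and 2732 lower at 0 h, 3394 and 3760 at 3 h, and 3495 and 3706 at 6 h. The pair counts were not tested against pairs of other genes. With the replicate number as a block 3 pairs were opposite at 0 h, 5 at 3 h and 5 at 6 h, and 2 at 0 h, 1 at 3 h and 2 at 6 h were called the same way. The mitochondrial member had the higher difference in 7 pairs at 0 h, 7 at 3 h and 11 at 6 h, and the median gap on the log2 scale was 0.08 at 0 h, 0.17 at 3 h and 0.41 at 6 h. With spike-in scaling 1 pair was opposite at 0 h (tyrosyl), 1 at 3 h (seryl) and 2 at 6 h (tyrosyl and tryptophanyl). On the deposited scale the tyrosyl pair was opposite throughout: at 0 h YARS2 differed by 0.80 and YARS1 by -0.29, and at 6 h YARS2 by 2.14 and YARS1 by -0.95. The tryptophanyl pair was opposite at 3 and 6 h, with the mitochondrial mRNA the higher. The seryl pair ran the other way at all 3 times, with SARS1 higher and SARS2 lower. This pair is uncertain, as 71.9% of the 50-base stretches of SARS2 also occur in AC011455.2.

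The histidyl pair also ran the other way at 3 and 6 h, across the 84 bases printed above. HARS2 had 386 and 445 counts in siCPSF6, against 582 and 648 in siNC libraries at 6 h, a difference of -0.57 ± 0.11 (limma adjusted p = 0.00041). HARS1 had 3096 and 3155 counts in siCPSF6, against 2460 and 2398 in siNC libraries at 6 h, a difference of 0.36 ± 0.06. Neither gene's libraries overlapped between the arms. At 0 h HARS2 had 509 and 511 counts in siCPSF6, against 597 and 610 in siNC libraries, and was not called (-0.24 ± 0.11, limma adjusted p = 0.084). With the replicate number as a block HARS2 was called lower at 0 h (limma adjusted p = 0.035), and the histidyl pair was then opposite at 0 h too. The 2 annotated genes overlap on opposite strands at their 5′ ends, and HARS2 shares 4.19% of its 50-base stretches with other genes, mainly ZMAT2.

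**Figure D2:**
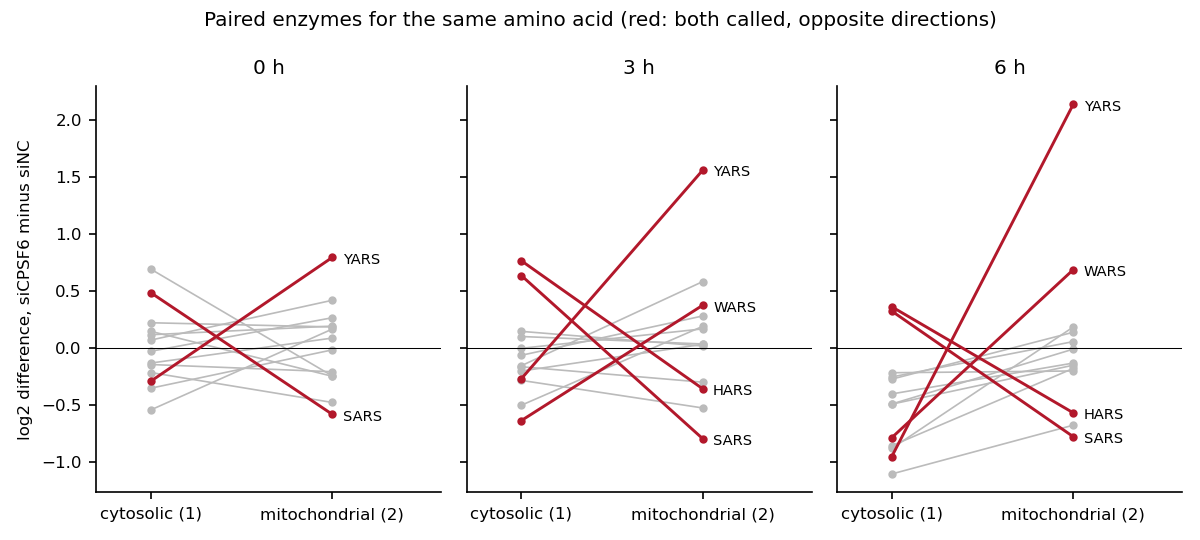
Log2 difference of siCPSF6 minus siNC cells for 13 amino acids with a cytosolic (symbol ending in 1) and a mitochondrial (ending in 2) enzyme, joined by lines, at 0, 3 and 6 h. Red lines mark pairs with both members called in opposite directions, 2 at 0 h, 4 at 3 h and 4 at 6 h; the tyrosyl line steepens with time to a mitochondrial value of 2.14.

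After 6 h of the block more synthetase mRNAs were higher than lower on the deposited scale, in both arms. There 33 members were called between 6 h and 0 h in siCPSF6 cells, 25 higher and 8 lower, where 77.4% of all genes were called and 49.8% were called higher. In siNC cells 33 were called, 26 higher and 7 lower, where 79.3% of all genes were called and 48.6% were called higher. This scale sets libraries to 1 upper quartile, so a gene lost more slowly than others can be higher after the block. The median change was 0.48 over members and 0.35 over all genes in siCPSF6, and 0.74 over members and 0.31 over all genes in siNC cells.

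Spike-in RNA, added to 5 µg of total RNA, gives values per mass of total RNA instead, and the medians over members then turned negative. In siCPSF6 cells 19 members passed between 6 h and 0 h, 0 higher and 19 lower, where 58.2% of all genes passed. In siNC cells 17 passed, 4 higher and 13 lower, where 68% of all genes passed. The median change was -0.37 over members and -0.50 over all genes in siCPSF6, and -0.22 over members and -0.65 over all genes in siNC cells. From TPM the counts were 19 in siCPSF6 (0 higher, 19 lower), where 63.2% of all genes passed, and 21 in siNC cells (8 higher, 13 lower), where 69.8% passed. On the spike-in scale the median share of the 0 h level present at 6 h was 78.0% over cytosolic and 77.3% over mitochondrial members in siCPSF6, and 102% over cytosolic and 77.4% over mitochondrial members in siNC cells.

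A few members were lost quickly in both arms. PARS2 had 4 and 1 counts at 6 h and 83 and 91 at 0 h in siCPSF6, a change of -4.80 ± 0.44, and 12 and 13 at 6 h and 151 and 114 at 0 h in siNC cells, a change of -3.29 ± 0.44. MARS2, the mitochondrial methionyl enzyme, had 137 and 106 counts at 6 h and 501 and 405 at 0 h in siCPSF6, a change of -1.89 ± 0.18. In siNC cells MARS2 had 149 and 120 counts at 6 h and 518 and 551 at 0 h, a change of -1.99 ± 0.18. Both lie in few exons: MARS2 is the only single-exon member, and PARS2 has its coding sequence in 1 of 2 exons. The median was 15 exons over mitochondrial and 17 over cytosolic members. RARS1 with 15 exons, TARS1 with 19 and FARSA with 13 were also lost, as given below. Whether the number of exons goes with the loss was not tested. Most of the loss of MARS2 came early, as 17.2% of its spike-in-scaled level was present at 3 h and 14.8% at 6 h in siCPSF6, and 12.7% at 3 h and 12.8% at 6 h in siNC cells.

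RARS1, the arginyl enzyme of the complex, was the cytosolic member lost most. It had 537 and 619 counts at 6 h and 1890 and 1993 at 0 h in siCPSF6, a change of -1.75 ± 0.10 (limma adjusted p = 7e-10), and 725 and 904 at 6 h and 2203 and 2298 at 0 h in siNC cells. On the spike-in scale 16.4% was present at 6 h in siCPSF6 and 18.8% in siNC cells. TARS1, the cytosolic threonyl enzyme, kept 21.2% in siCPSF6 and 24.4% in siNC cells, and FARSA kept 22.7% in siCPSF6 and 23.3% in siNC cells. These 3 were the only cytosolic members under 50% at 6 h in either arm. FARSB, whose product pairs with that of FARSA in 1 enzyme, kept 65.7% in siCPSF6 and 58.5% in siNC cells. The other complex enzymes kept more, and KARS1 was the lowest of them in siCPSF6 at 67.5%. The pentamer ATTTA is the core of AU-rich instability elements. In principal GENCODE transcripts it occurs 6 times in the 3′ UTR of MARS2, 4 times in TARS1, 2 times in PARS2, 1 time in FARSA and 0 times in RARS1. It occurs 5 times in EARS2, which kept 89.0% in siCPSF6 and 108% in siNC cells, 5 times in WARS2 and 4 times in LARS1. Whether its number goes with the loss was not tested.

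The 3 members highest after the block in siCPSF6 cells were VARS2 with a change of 0.98 ± 0.06, QARS1 with 0.97 ± 0.07 and VARS1 with 0.92 ± 0.08 on the deposited scale. With spike-in scaling VARS2 changed by 0.12 (limma adjusted p = 0.50), QARS1 by 0.11 (0.51) and VARS1 by 0.06 (0.73), and none was called. From TPM none was called either (0.089 for VARS2, 0.64 for QARS1 and 0.49 for VARS1). VARS2 overlaps GTF2H4 on its own strand. In siNC cells AARS1 changed by 1.56 ± 0.07, VARS1 by 1.42 ± 0.08 and MARS1, the methionyl enzyme of the complex, by 1.37 ± 0.08. These 3 and KARS1 were also the 4 members called higher in siNC cells with spike-in scaling, by 0.59 ± 0.15 for AARS1, 0.45 ± 0.14 for VARS1, 0.41 ± 0.14 for MARS1 and 0.34 ± 0.16 for KARS1 (limma adjusted p = 0.049). MARS1 overlaps DDIT3 on the opposite strand, which had 6 to 188 counts against 2589 to 7218 for MARS1.

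**Figure D3:**
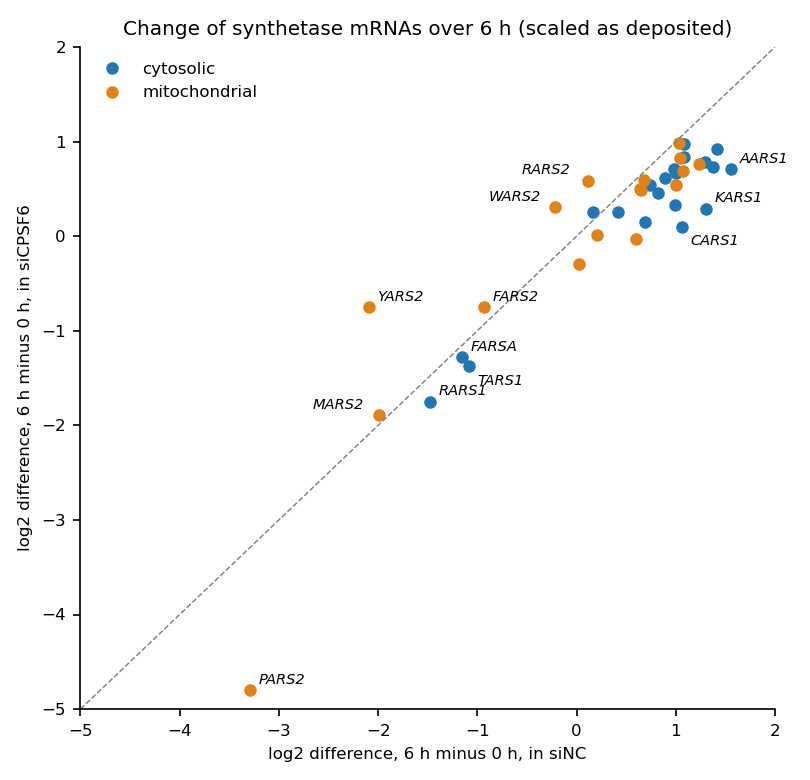
Change of each synthetase mRNA between 6 h and 0 h in siCPSF6 cells (vertical axis) and in siNC cells (horizontal axis), as log2 differences on the deposited scale; the dashed line marks equal change. AARS1, KARS1 and CARS1 lie below the line at the right, YARS2 lies above it at -0.75 in siCPSF6 and -2.09 in siNC, and PARS2 is at the lower left.

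The change over 6 h differed between the arms for 18 members, 3 higher and 15 lower in siCPSF6, where 24.4% of all genes were called and 12.4% were called lower. The test is the interaction of siRNA and time in the same limma fit. Cytosolic members were lower in 11 cases and higher in 0, and mitochondrial members lower in 4 and higher in 3. The median was -0.31 over cytosolic members, -0.16 over mitochondrial members and -0.03 over all genes. With spike-in scaling 4 members were called, 1 higher and 3 lower, where 8.73% of all genes were called, and from TPM 8, 2 higher and 6 lower, where 12.7% of all genes were called. Standard errors were wider on the spike-in scale, for example 0.22 against 0.10 for KARS1.

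YARS2 was kept longer in siCPSF6 cells. Its counts at 0, 3 and 6 h were 1131 and 1091, 978 and 1002, and 671 and 648 in siCPSF6 libraries. In siNC libraries they were 658 and 621, 320 and 350, and 149 and 149. On the log2 scale the arms lay farther apart at each later time, by 0.80 at 0 h, 1.56 at 3 h and 2.14 at 6 h. Their libraries did not overlap at any time. On the spike-in scale 32.7% of the 0 h level was present at 6 h in siCPSF6 and 12.0% in siNC cells. The difference between the arms in the change was 1.34 ± 0.13 (limma adjusted p = 6.2e-06), and 1.44 ± 0.25 with spike-in scaling (adjusted p = 4.8e-05).

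WARS2 and RARS2 were the other members with a higher change in siCPSF6 cells. WARS2 differed by 0.52 ± 0.14 (limma adjusted p = 0.013), with 68.3% of its spike-in-scaled level present at 6 h in siCPSF6 and 44.3% in siNC cells. RARS2 differed by 0.47 ± 0.14 (adjusted p = 0.028), with 82.7% present in siCPSF6 and 55.7% in siNC cells. With spike-in scaling WARS2 (adjusted p = 0.12) and RARS2 (0.094) were not called. WARS2 also missed the threshold from TPM (0.053) and without siCPSF6 replicate 2 at 0 h (0.066). RARS2 missed it without the trend and robust settings (0.081). It also missed it without siCPSF6 replicate 2 at 0 h (0.12), siNC replicate 1 at 0 h (0.10), siCPSF6 replicate 1 (0.070) or 2 (0.053) at 6 h, or siNC replicate 2 at 6 h (0.057).

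For KARS1, CARS1 and AARS1 the gap between the arms was widest at 6 h. KARS1 was already lower in siCPSF6 cells at 0 h (-0.32 ± 0.07) and at 3 h (-0.46 ± 0.07). KARS1 had 2298 and 2151 counts at 0 h, 2575 and 2799 at 3 h and 2611 and 2830 at 6 h in siCPSF6 libraries. In siNC libraries it had 2848 and 2710, 3626 and 3787, and 6724 and 7010 at these times. AARS1 had 3072 and 2976 counts at 0 h, 4189 and 4395 at 3 h and 5014 and 4849 at 6 h in siCPSF6 libraries, and 3166 and 2996, 4537 and 4421, and 9447 and 8698 in siNC libraries. For KARS1 the siCPSF6 libraries overlapped between 3 h and 6 h, and for both genes the siNC libraries at 6 h stood far above those at 3 h, while the arms of AARS1 overlapped at 0 h. The difference in the change was -1.02 ± 0.10 for KARS1 (limma adjusted p = 7.9e-06), -0.96 ± 0.12 for CARS1 (5.6e-05) and -0.85 ± 0.09 for AARS1 (1.9e-05). With spike-in scaling it was -0.91 ± 0.22 for KARS1, -0.86 ± 0.23 for CARS1 and -0.75 ± 0.21 for AARS1, all called (adjusted p = 0.0045 for KARS1, 0.011 for CARS1 and 0.015 for AARS1).

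Other members were also higher at 6 h than at 3 h in siNC cells. On the spike-in scale both siNC libraries at 6 h lay above both at 3 h for 13 of 37 members, where 19.9% of all genes did so. They included AARS1, CARS1, HARS1, KARS1, LARS1, MARS1, VARS1 and YARS1 among cytosolic and CARS2, EARS2, IARS2 and TARS2 among mitochondrial members. In siCPSF6 cells this held for 0 of 37 members and 3.14% of all genes. The 2 siCPSF6 libraries at 3 h had different spike-in shares, 1.43% and 1.13% of counts, which widens their range on this scale. For AARS1, 89.8% of the 0 h level was present at 6 h in siCPSF6 and 151% in siNC cells.

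**Figure D4:**
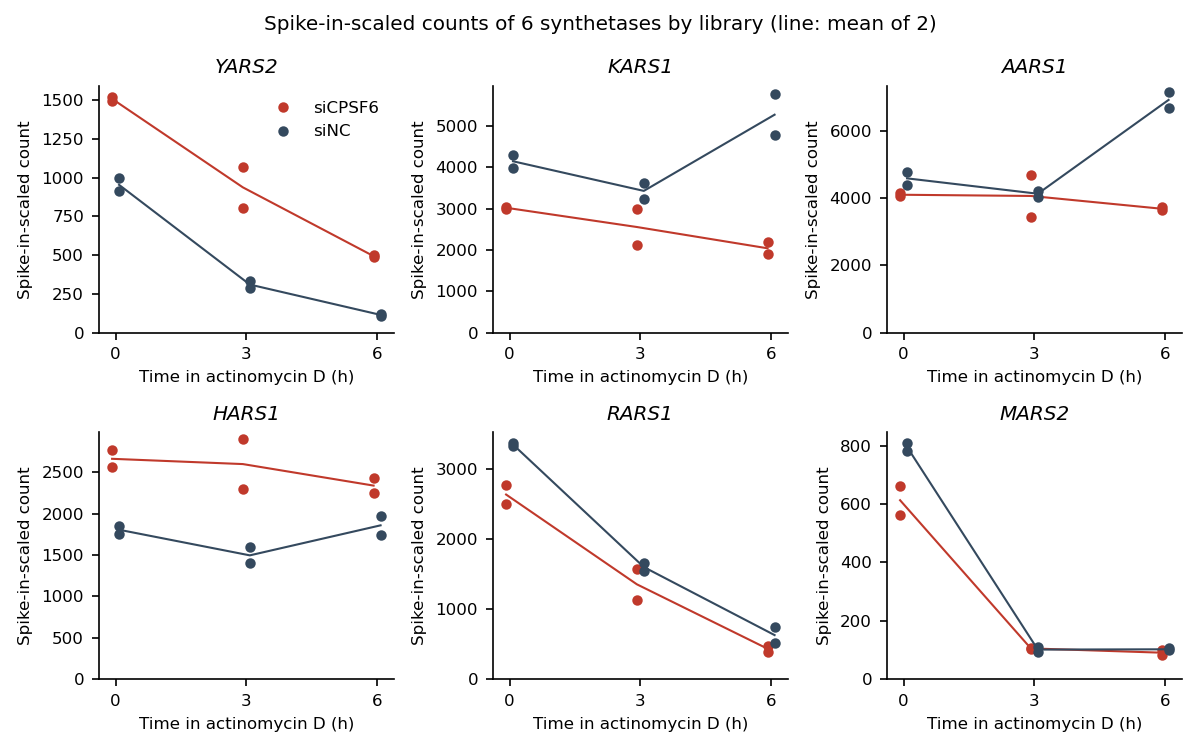
Spike-in-scaled counts (vertical axis, from 0) of 6 synthetases at 0, 3 and 6 h in actinomycin D, with a point for each of 2 libraries per group and a line through their means, siCPSF6 in red and siNC in dark blue. YARS2 is higher in siCPSF6 at each time, KARS1 and AARS1 step up in siNC at 6 h, and RARS1 and MARS2 are lost in both arms, MARS2 to 14.8% in siCPSF6 and 12.8% in siNC cells.

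The 12 synthetases listed as known ATF4 targets are all cytosolic members, so they give no view apart from that class. In siCPSF6 against siNC cells 2 were higher and 3 lower at 0 h, 2 higher and 4 lower at 3 h, and 1 higher and 10 lower at 6 h. Of all genes 42.9% were called at 0 h, 55.3% at 3 h and 55.7% at 6 h, where 28.6% were called lower. The other 8 cytosolic members were 1 higher and 7 lower at 6 h, with a median of -0.44, against -0.45 over the 12. In the difference of the change 8 of the 12 were lower and 0 higher, with a median of -0.44, and 3 of the other 8 were lower and 0 higher, with a median of -0.24. Of all genes 24.4% were called in this difference and 12.4% were called lower. With the replicate number as a block 11 of the 12 were lower in it, and the share of all genes with the block is not given here. With spike-in scaling 0 of the 12 were higher and 7 lower at 6 h, where 41% of all genes were called. On that scale 2 were lower in the difference of the change, where 8.73% of all genes were called. ATF4 mRNA had 7807 and 8175 counts in siCPSF6, against 14534 and 13385 in siNC libraries at 6 h, a difference of -0.80 ± 0.08. At 0 h it had 7947 and 7254 in siCPSF6, against 7949 and 7236 in siNC libraries. The list of ATF4 and its other targets held 26 tested genes, so ATF4 is counted again here. Of them 9 were higher and 5 lower at 0 h. At 6 h 3 were higher and 11 lower (6 higher and 12 lower with the replicate number as a block). Thus 14 of the 26 were called at each time, where 42.9% of all genes were called at 0 h and 55.7% at 6 h, and the list was not tested against these shares. ASNS, asparagine synthetase, had 991 and 887 counts in siCPSF6, against 2828 and 2165 in siNC libraries at 6 h (difference -1.40 ± 0.14). PCK2, the mitochondrial phosphoenolpyruvate carboxykinase, differed by -0.90 ± 0.07 at 6 h. SLC7A11, the cystine transporter, was higher in siCPSF6 at 0 h (1.09 ± 0.10), while the difference between the arms in its change over 6 h was -1.67 ± 0.14.

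Of the 3 scaffold mRNAs of the multisynthetase complex, 2 were higher and 0 lower in siCPSF6 cells at 6 h, where 27% of all genes were called higher. The difference from the 8 enzymes, all lower, was not tested. EEF1E1 had 1384 and 1435 counts in siCPSF6, against 970 and 1045 in siNC libraries (0.48 ± 0.09), and AIMP2 had 688 and 894 in siCPSF6, against 430 and 537 in siNC libraries (0.71 ± 0.14). AIMP1 was at 0.18 ± 0.07 and was not called (limma adjusted p = 0.054), but was called higher with the replicate number as a block (0.019). The counts at 6 h were the same with spike-in scaling, 2 higher and 0 lower. At 3 h all 3 were higher, where 3394 of 12939 genes were called higher. At 0 h AIMP1 and EEF1E1 were higher, where 2825 genes were. With spike-in scaling 1 of the 3 was higher and 0 lower at each of these times.

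Other genes of tRNA use were described from lists, where 55.7% of all genes were called at 6 h. No list was tested against that share, and without a replicate block the elongation factors and charging partners lay near it. Of 18 genes of tRNA maturation and export 8 were higher and 4 lower in siCPSF6 cells at 6 h (6 and 3 with spike-in scaling). With the replicate number as a block 9 were higher and 5 lower. XPOT, the tRNA exporter, had 4459 and 4205 counts in siCPSF6, against 2144 and 2103 in siNC libraries (1.03 ± 0.07), RPP40, a subunit of RNase P, differed by 1.17 ± 0.12, and TSEN15, of the tRNA splicing endonuclease, by -0.72 ± 0.09. Of 6 selenocysteine, editing and related enzymes 4 were lower and 0 higher at 6 h (2 lower with spike-in scaling, 5 with the block). They were led by DTD2, a D-aminoacyl-tRNA deacylase, at -1.03 ± 0.08. Of 9 elongation factors 1 was higher and 4 lower at 6 h (1 and 2 with spike-in scaling, 1 and 6 with the block). GFM2, a mitochondrial ribosome recycling factor, was at -0.74 ± 0.09. Of 4 mitochondrial charging partners 1 was higher (MTFMT, which formylates the initiator tRNA, 0.35 ± 0.14) and 1 lower (GATB, of the amidotransferase, -0.37 ± 0.09) at 6 h, and 0 of the 4 were called with spike-in scaling.

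The ratio of normalized count to TPM follows the effective transcript length used in quantification. At 0 h it was higher in siCPSF6 cells for 15 members and lower for 0, where 36.3% of all genes were called. Of the 12895 genes tested 3939 were higher and 741 lower, so most calls over all genes ran the same way. The median was 0.07 over members and 0.08 over all genes on the log2 scale. RARS2 (0.16 ± 0.02), AARS2, the mitochondrial alanyl enzyme (0.13 ± 0.04), and SARS1 (0.13 ± 0.01) were highest. Ratios were centred on the median gene of each library, and without centring 0 members were called by limma. Without siCPSF6 replicate 1 at 0 h 9 were called. The call of AARS2 was lost with the replicate number as a block (adjusted p = 0.054). It was also lost without siCPSF6 replicate 1 (0.12) or 2 (0.11) at 0 h, siNC replicate 2 at 0 h (0.18), or siCPSF6 replicate 1 (0.052) or 2 (0.052) at 6 h.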

How the data were processed

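Per the labels' protocols, each library was made from 5 µg of total RNA spiked with ERCC standards. STAR, RSEM and hg38 are named per the submitters' processing notes, without versions, annotation or strand setting. The count table deposited by the authors is a score, since its values share 1 upper quartile across libraries and are rounded, so tests for raw counts were not run. The deposited TPM table, computed by the authors, served for levels, as an alternative fitted on log2(TPM + 1), and for the apparent length.

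Log2(normalized count + 1) was fitted with limma 3.58.1 in R 4.3.3 (trend and robust settings) over all 12 libraries with 6 group means, for 12939 genes with a mean of at least 20, with Benjamini-Hochberg adjustment and a threshold of 0.05. The script was tested on simulated data. Spike-in scaling divides each library by its spike-in total. The members and lists were chosen with earlier results of these data known. The text names, among called members, the 5 highest and 5 lowest at each time, the 3 and 3 for other comparisons, up to 3 of each other list, and CPSF6; some members are not reported singly here. Other members are named beside these to describe pairs, subunits or counts and were chosen after their values were seen.

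Same-numbered libraries deviated together from their group means (correlations 0.108 to 0.236 over 15 pairs of groups), all above 0.1, which was read as pairing from the values alone. The fit has no term for the pairs, and the fit with the replicate number as a block is an alternative. It is given beside some of the calls that it changes, and other printed counts of members and lists also change with it. Replicates differed beyond counting noise (chi-square per gene 6.21 to 17.7). Overlaps are from GENCODE release 29, which may not be the authors' annotation. The alternatives were other pseudocounts, filters and scalings, TPM, other limma settings, the replicate block, and each library left out in turn.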

Additional observations from a re-analysis of the deposited data

Results flagged for a closer look

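For 18 synthetases the change between 6 h and 0 h differed between siCPSF6 and siNC cells by limma's interaction test, as log2 differences on the deposited scale. The members lower in siCPSF6 cells included KARS1 by -1.015, CARS1 by -0.96, AARS1 by -0.8517, YARS1 by -0.6606, MARS1 by -0.6389, TARS2 by -0.6202, GARS1 by -0.5358 and LARS1 by -0.5048. Also lower were VARS1 at -0.4948, CARS2 at -0.4692, EARS2 at -0.3833, NARS1 at -0.3702, HARS1 at -0.3304 and IARS1 at -0.2708. It was higher in siCPSF6 cells for RARS2 (0.4673), WARS2 (0.5207) and YARS2 (1.342). With spike-in scaling YARS2, KARS1, CARS1 and AARS1 were called.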

How the results depend on the processing

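Of the member results that the naming rule picked, none changed direction under the alternatives run. For the counts of called members, 140 values stayed within 1.5 times the main count. Results outside that rule could change direction. In siCPSF6 cells AARS1 rose from a mean of 3024 counts at 0 h to 4931.5 at 6 h, but kept 89.8% with spike-in scaling. The median change from 0 to 6 h over members did turn, to -0.37 in siCPSF6 and -0.22 in siNC cells with spike-in scaling. With spike-in scaling the members called were 10 at 0 h, 14 at 3 h, 19 for the change in siCPSF6, 17 for the change in siNC and 4 for the difference between the arms. From TPM (mean of at least 1) they were 19 for the change in siCPSF6, 21 for the change in siNC and 8 for the difference between the arms. For the apparent length the count was 0 without centring and 9 to 16 with each library left out, lowest without siCPSF6 replicate 1 at 0 h. With the replicate number as a block the call of AARS2 in apparent length was lost (0.13, limma adjusted p = 0.054). Over the 6 comparisons of levels the block added 16 calls of members to 151 and took away 0, and it changed no other call among the member results that the naming rule picked. Calls of single members were lost in 36 cases; the cause was not tested. Depth limits PARS2 most, with 1 to 13 normalized counts at 6 h.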
